A study of Mus musculus with 18 samples.

Results

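The genes described here make amino acids and one-carbon units, belong to the ATF4 stress response, or charge tRNAs in the cytosol. The list holds 39 genes, chosen by name for these functions with earlier results of these data known. Of them 37 have a probe set annotated to their symbol alone, among 18194 genes measured. Pycr1 and Dars were not analysed on the arrays. By role, the measured genes are 8 ATF4 and stress response factors, 8 enzymes of serine and one-carbon synthesis, 4 enzymes of asparagine, proline and cysteine synthesis, and 17 cytosolic tRNA synthetases. The cells were murine CD8+ T cells from male OT-I mice, whose transgenic T cell receptor sees an ovalbumin peptide, so that nearly every cell carries the same receptor. They were primed for 48 hours on irradiated splenocytes pulsed with that peptide, purified on Ficoll, and kept for a further 24 hours either without cytokine (media control) or with 1 recombinant murine cytokine at 100 ng/ml. The cytokines were IL-2, IL-4 and IL-21, together with IL-7 and IL-15. All 6 groups therefore share the priming, and the media control cells are primed cells left without cytokine. Each group had 3 replicates on an Affymetrix mouse expression array, 18 arrays in all, and the question asked of each cytokine is how it moved these genes from the level in plain media.

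ATF4 is a transcription factor whose mRNA is translated more when the initiation factor eIF2α is phosphorylated, as happens when amino acids run short or unfolded protein builds up in the endoplasmic reticulum. Its known targets include the enzymes that make asparagine, serine and proline, amino acid transporters and many tRNA synthetases, and in activated T cells ATF4 is known to help supply amino acids and one-carbon units for growth. One-carbon units taken from serine are carried on folate and feed nucleotide synthesis, while a tRNA synthetase joins an amino acid to its tRNA before translation. The arrays measure mRNA only, so the amount of ATF4 protein and the phosphorylation of eIF2α were not measured here.

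Levels are given as log2 values of 1 probe set per gene after the 18 arrays were brought to the same distribution, and changes as differences of the means of 3 arrays on that scale with their standard error (SE), so that 1 is a doubling. Probe sets differ in brightness, so levels are not compared between genes. A gene was called changed at an adjusted p under 0.05 in limma, a linear model fitted over all 18 arrays and all 18194 genes. Arrays with the same replicate number deviated together, and a second fit with the replicate as a block is given for many of the calls that it moves. As deposited, replicate 3 of the IL-2, IL-15 and media control groups had medians of 4.47 to 4.52 against 5.76 to 5.84 on the other 15 arrays. These 3 arrays also differed more between the 3′ and 5′ probe sets of actin, by 0.589 to 0.684 on the log2 scale, against 0.372 to 0.395 on the other replicate 3 arrays and 0.188 to 0.308 on replicates 1 and 2. Replicate 3 of every group was extracted with TRIzol and Direct-zol and the other replicates with RNeasy. The CD8 T cell markers were over background in all 6 groups (7 of 7), with a mean of 12.38 to 12.71 per array in media control and 11.74 to 12.14 with IL-2, where 4 of the 7 fell. The myeloid and dendritic cell markers averaged 5.51 to 6.69 per array in media control and 5.10 to 5.52 with IL-2, with 2 of 10 over background in media control and 0 with IL-2. The B cell markers averaged 5.55 to 5.76 in media control and 5.07 to 5.52 with IL-2. Of these 7 only 1 was over background in either group, and 3 passed as lower with IL-2. The part of these shifts in the results was not tested, and in RNA from whole cultures fewer cells of a type and less RNA per cell cannot be told apart.

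IL-2 raised most of the genes. Against media control, 29 of the 37 rose with IL-2 and 0 fell (limma, adjusted p under 0.05), where 7.83% of all genes rose and 8% fell. IL-4 raised 12 and lowered 0, with 3.98% of all genes rising and 5.1% falling. IL-21 raised 5 and lowered 1, with backgrounds of 3.39% and 3.29%. With IL-7 0 of the 37 passed in either direction, with backgrounds of 0.934% and 0.747%, although 17 had an unadjusted p under 0.05, as did 14.2% of all genes. With IL-15 0 passed, as did 0 of all genes, and 1 of the 37 had an unadjusted p under 0.05, as did 2.14% of all genes. The median change of the 37 was 1.21 for IL-2, 0.68 for IL-4, 0.43 for IL-21, 0.44 for IL-7 and 0.18 for IL-15, beside medians over all genes of 0.01, 0.00, -0.01, -0.02 and -0.01. With the replicate block, 32 genes were higher for IL-2, 27 for IL-4, 20 for IL-21, 19 for IL-7 and 0 for IL-15. Lower under the block were Sesn2 for IL-4, Sesn2 and Wars for IL-21, and Ddit3 and Sesn2 for IL-7. In the same order of cytokines the block called 15.5%, 12.9%, 10.6%, 8.34% and 0% of all genes higher and 15.1%, 12.9%, 10.5%, 8.01% and 0% lower. With no further normalization of the deposited values, where 3 arrays lie on a lower scale, 4 of the 37 were higher with IL-2 and 0 with each other cytokine. With those 3 arrays left out after normalization the counts were 28 for IL-2, 10 for IL-4, 3 for IL-21 and 2 for IL-7. Leaving out 1 array gave 23 to 27 for IL-2, 6 (without media control replicate 2) to 13 for IL-4 and 1 (without IL-21 replicate 1 or 3) to 8 (without media control replicate 1) for IL-21.

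**Figure D1:**
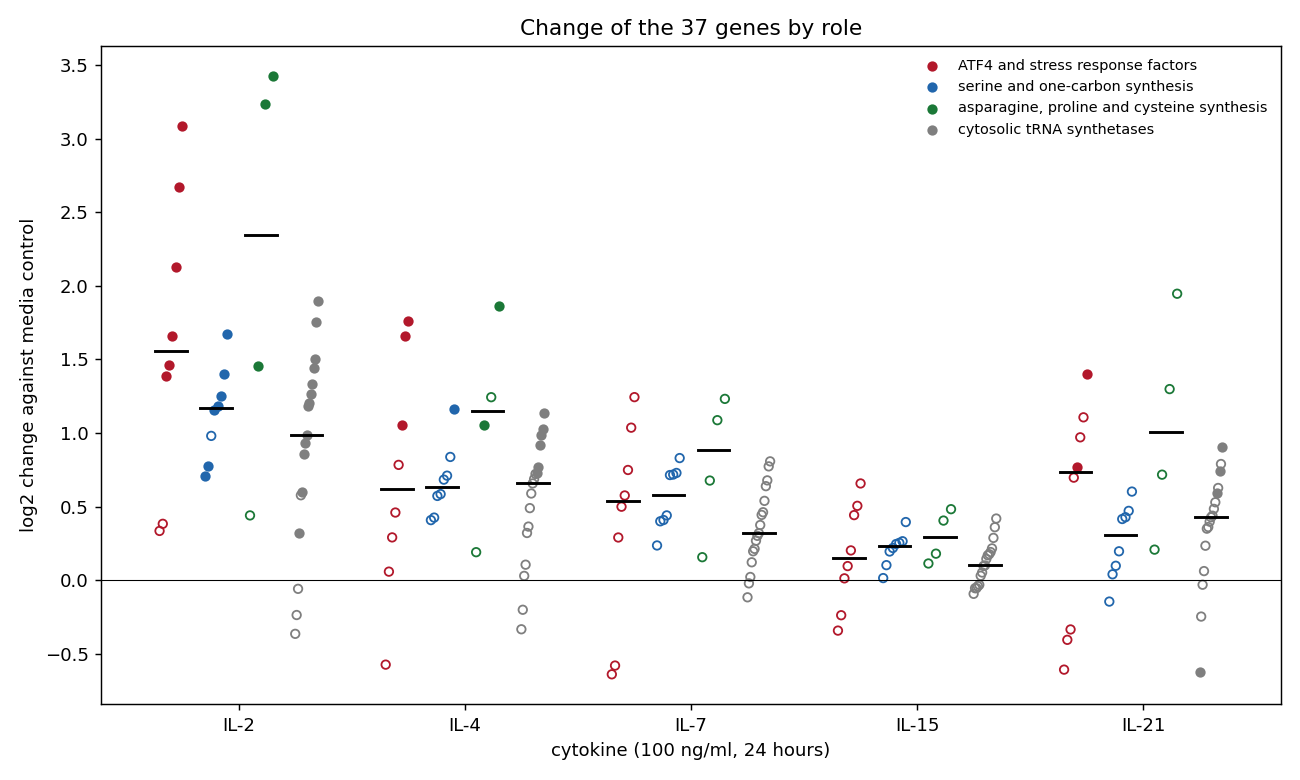
Log2 change against media control (vertical axis) of each of the 37 genes, for each cytokine (horizontal axis), coloured by role. Filled points passed the test (limma, adjusted p under 0.05), open points did not, and the black bar is the median of a role. All but 8 points are filled with IL-2 and none with IL-7 or IL-15.

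The group means had a similar order for most of the genes. The mean with IL-2 was the highest of the 6 groups for 33 of the 37, and the mean in media control was the lowest for 27. For 33 genes media control lay under IL-4 and IL-4 under IL-2, and for 25 IL-2 was first and IL-4 second. These counts of the order were made for the 37 genes only, with no share of all genes beside them. A test of any difference among the 6 groups (moderated F) passed for 24 of the 37, or 64.9%, beside 13.9% of all genes, and for 33 with the replicate block, beside 35.7%. The 3 IL-2 arrays all lay above the 3 media control arrays for 30 genes, where 12.9% of all genes did. The same held for 22 genes for IL-4, 11 for IL-21, 15 for IL-7 and 3 for IL-15, with backgrounds of 12.5%, 10.1%, 9.07% and 1.8%.

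**Figure D2:**
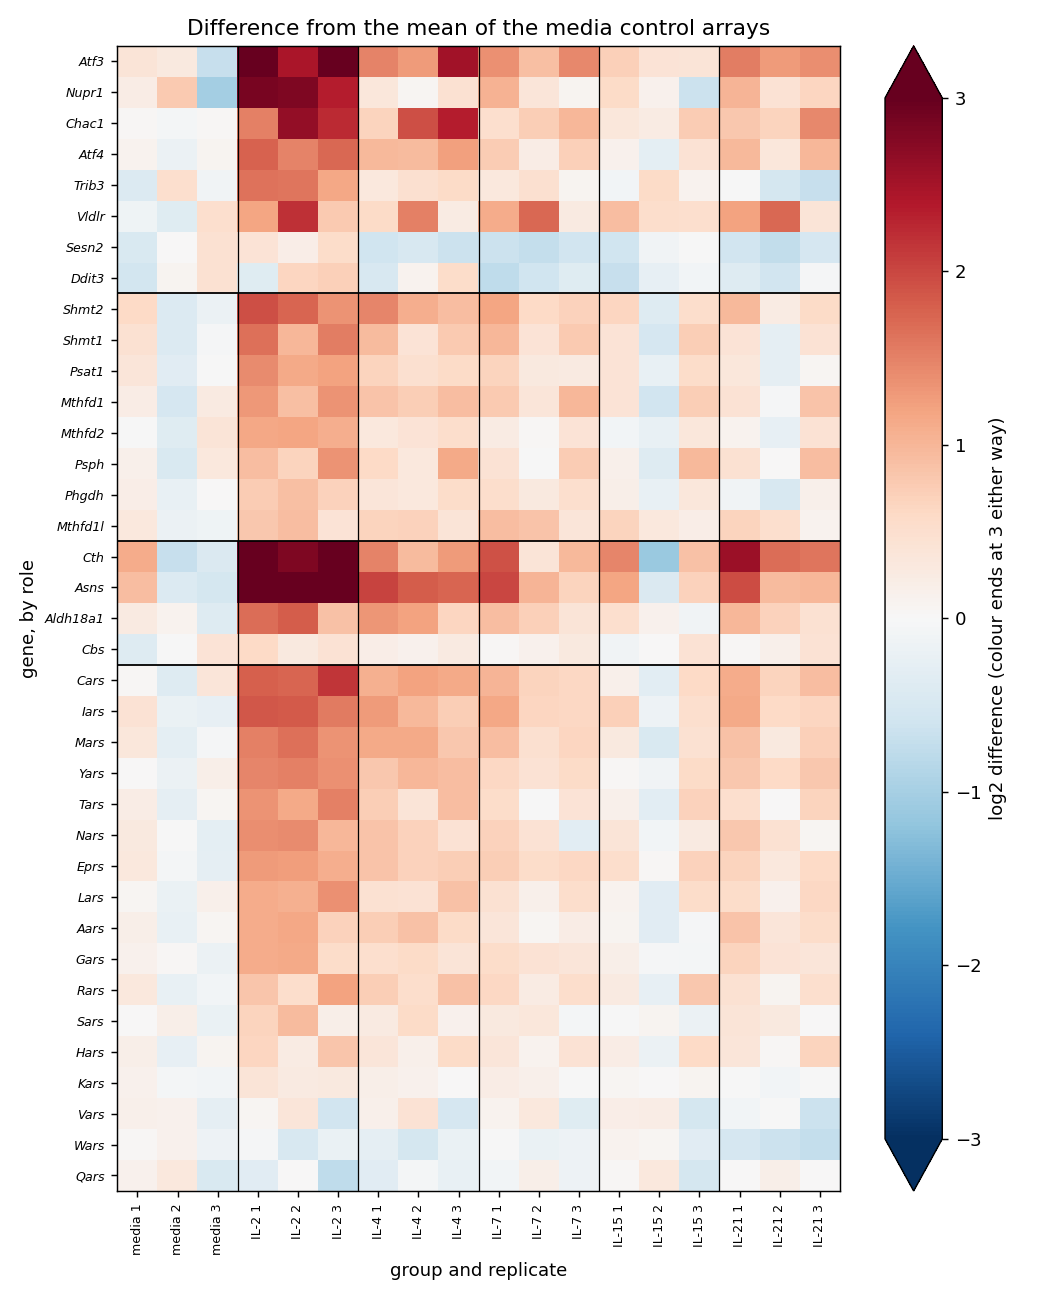
Log2 difference of each array from the mean of the media control arrays, for the 37 genes (rows, by role and then by the change with IL-2) on the 18 arrays (columns, by group and replicate). The IL-2 columns are red for most genes in all 3 replicates, the IL-4 columns are paler, and replicate 2 of IL-15 lies on the blue side for many genes.

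Among the ATF4 and stress response factors, 6 of 8 rose with IL-2, 3 with IL-4 and 2 with IL-21. Atf4 itself rose with these 3 cytokines. Its log2 level was 11.08, 10.79 and 11.05 in media control and 12.73, 12.47 and 12.69 with IL-2, a change of 1.66 (SE 0.21, limma adjusted p = 7.69e-05) or 3.16-fold. With IL-4 it was 11.95, 11.92 and 12.20, again above every control array (1.05, SE 0.21, adjusted p = 0.00424). With IL-21 it was 11.95, 11.32 and 11.96, which is 0.77 higher (SE 0.21, adjusted p = 0.0353). The 3 groups did not overlap with media control. The IL-7 arrays, at 11.74, 11.20 and 11.70, also lay above all 3 control arrays, with a change of 0.58 that did not pass (adjusted p = 0.192, and 0.00447 with the replicate block). With IL-15 the values of 11.11, 10.69 and 11.40 overlapped with media control. The IL-21 call was lost without IL-21 replicate 1 or 3, or replicate 1, 2 or 3 of media control (giving an adjusted p of 0.159, 0.142, 0.0532, 0.146 and 0.0724, in that order).

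Atf3, a stress-induced member of the same family of transcription factors, rose with the same 3 cytokines as Atf4. Its level was 6.80, 6.71 and 5.72 in media control, 9.63, 8.85 and 10.01 with IL-2 and 7.89, 7.69 and 8.93 with IL-4. The control values lie under the background level of 6.89, set by genes of other tissues, so the size of the change is not exact here, nor for the other genes given as under background. The change with IL-2 was 3.08 (SE 0.34, limma adjusted p = 3.35e-05), 1.76 with IL-4 (adjusted p = 0.00403) and 1.40 with IL-21 (adjusted p = 0.0209). The IL-21 arrays, at 7.95, 7.68 and 7.80, did not overlap with media control either. The IL-21 call was lost without IL-21 replicate 1 or 3, or replicate 3 of media control (giving an adjusted p of 0.0862, 0.0607 and 0.107, in that order). With IL-15 the values were 7.13, 6.81 and 6.80, the lowest of them level with the highest control array to 2 decimals, and the change of 0.51 did not pass.

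Chac1 encodes an enzyme that breaks down glutathione and is a known ATF4 target. It stood at 5.32, 5.24 and 5.33 in media control, under background, at 6.81, 7.92 and 7.53 with IL-2 and at 5.97, 7.23 and 7.66 with IL-4. The replicates with cytokine were spread over more than 1 log2 unit while the controls were nearly equal. With IL-2 it rose by 2.13 (SE 0.36, limma adjusted p = 0.000719) and by 1.66 with IL-4 (SE 0.36, adjusted p = 0.00776). With IL-21 its mean was also under background, and its change of 0.97 passed only with the replicate block (adjusted p = 0.137, and 0.0188 with the block).

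Nupr1, a small stress-induced nuclear protein, and Trib3, a pseudokinase known to bind ATF4 and restrain it, passed with IL-2 and with no other cytokine. Nupr1 was 5.57, 6.15 and 4.34 in media control, under background, and 8.21, 8.16 and 7.70 with IL-2, a change of 2.67 (SE 0.39, limma adjusted p = 0.000265). With IL-4 it was 5.70, 5.41 and 5.82, inside the range of the controls (0.29, adjusted p = 0.748). Trib3 was 7.35, 8.27 and 7.66 in media control and 9.38, 9.37 and 8.92 with IL-2, a change of 1.46 (SE 0.24, adjusted p = 0.000572). With IL-21 Trib3 was 7.74, 7.24 and 7.08, the lowest of the group means, and the change of -0.41 did not pass (adjusted p = 0.442). The differences between cytokines were tested directly for both genes, and those of Nupr1, which was under background with IL-4 and IL-21 as well, are not exact in size. With IL-2 Nupr1 was higher than with IL-4 by 2.38 (adjusted p = 0.00307) and than with IL-21 by 1.97 (adjusted p = 0.00588). With IL-2 Trib3 was higher than with IL-4 by 1.00 (adjusted p = 0.0389, lost on leaving out any 1 array of these groups but IL-2 replicate 3) and than with IL-21 by 1.87 (adjusted p = 0.000206).

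The other stress genes behaved differently. Vldlr, a lipoprotein receptor, was under background in every group and is counted as higher with IL-2 (1.39, SE 0.45, limma adjusted p = 0.0451), so its size is not exact. The call was lost without IL-2 replicate 1 or 2, or replicate 1 or 2 of media control (giving an adjusted p of 0.0818, 0.217, 0.111 and 0.176, in that order). Ddit3, which encodes the stress factor CHOP, was 7.98, 8.60 and 8.99 in media control and 8.17, 9.16 and 9.25 with IL-2, and the groups overlapped (0.33, adjusted p = 0.682). With IL-7 it was -0.58 against media control, which passed only with the replicate block (adjusted p = 0.443, and 0.0297 with the block). Sesn2, a leucine sensor that restrains the growth kinase complex mTORC1, was 7.20, 7.67 and 8.12 in media control and 8.06, 7.85 and 8.22 with IL-2 (0.38, adjusted p = 0.258). It was 7.07, 7.18 and 7.01 with IL-4, 7.09, 6.91 and 7.16 with IL-21 and 7.02, 6.95 and 7.10 with IL-7, under every control array in these 3 groups. The changes of -0.57, -0.61 and -0.64 passed only with the block (adjusted p = 0.0176, 0.0158 and 0.0166, and 0.0872, 0.0837 and 0.122 without it). With IL-2 Sesn2 was higher than with IL-4 by 0.96 (adjusted p = 0.0151), than with IL-7 by 1.02 (adjusted p = 0.0157) and than with IL-21 by 0.99 (adjusted p = 0.006). Of the 6 arrays of each comparison, 4 ended the call against IL-4 and 5 that against IL-7 when left out alone.

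**Figure D3:**
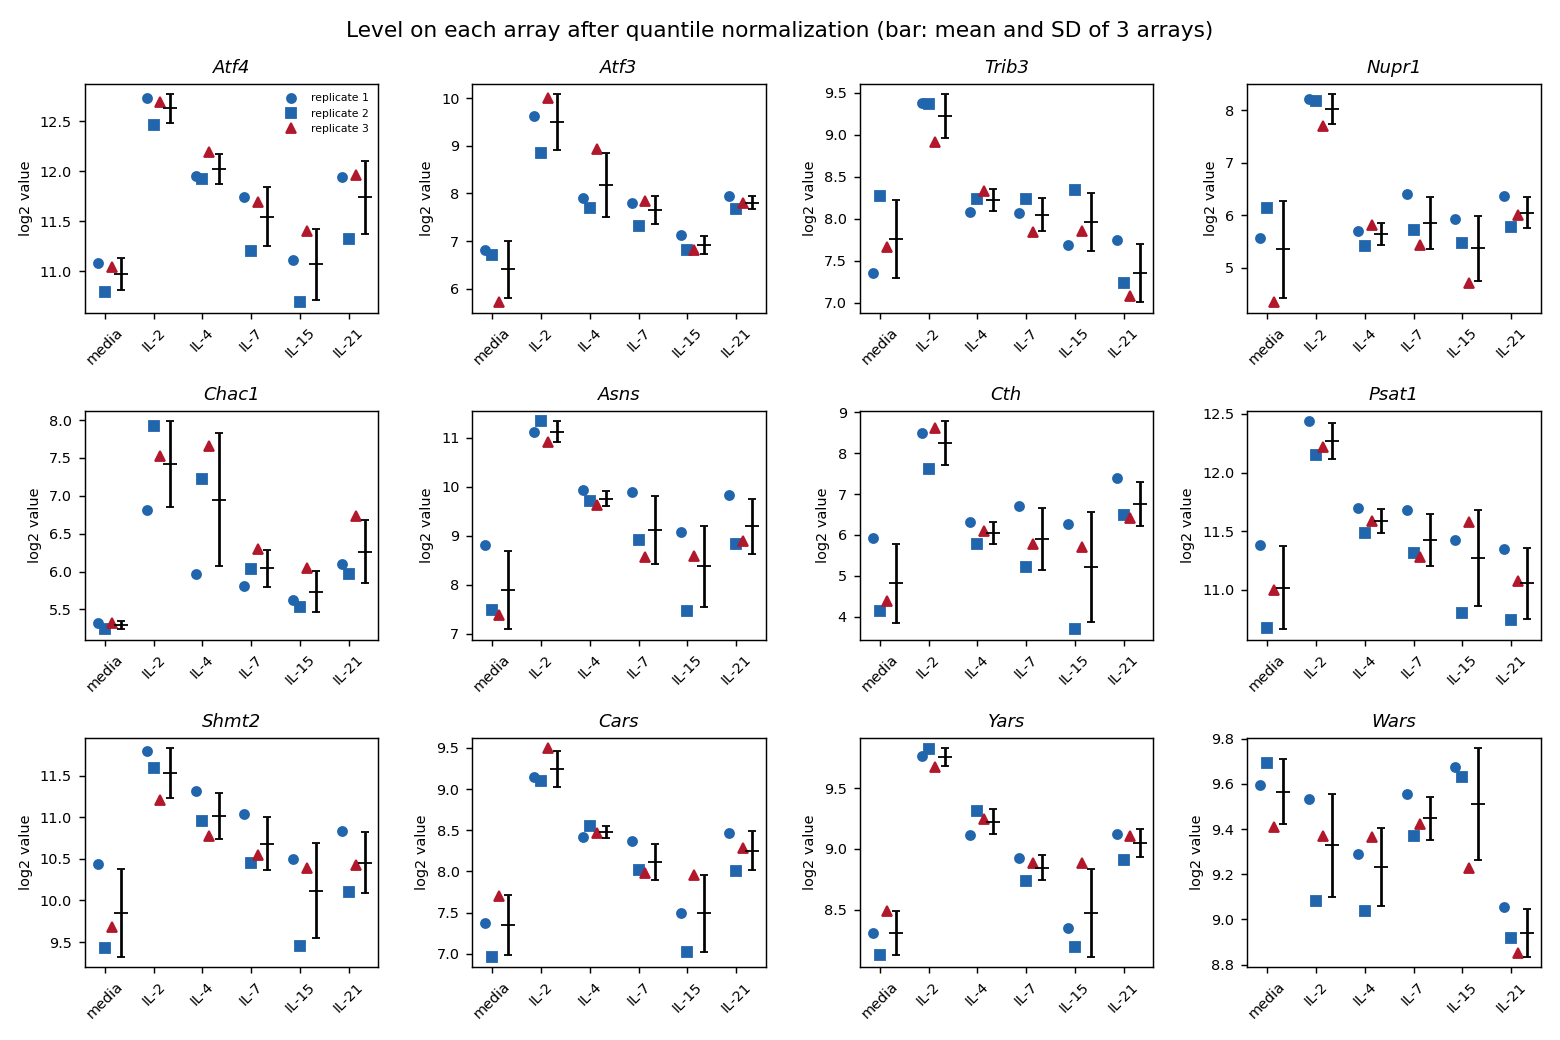
Log2 level after quantile normalization (vertical axis) of 12 of the genes in the 6 groups (horizontal axis). Replicate 1 is a circle, replicate 2 a square and replicate 3 a triangle, red marks the replicate extracted with TRIzol, and the bar gives the mean and SD of 3 arrays. For Nupr1 and Trib3 the IL-2 arrays stand apart from the other 5 groups, for Atf4, Asns and Cars the means of IL-4, IL-7 and IL-21 lie between media control and IL-2, and for Wars the IL-21 mean is the lowest.

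Enzymes of serine and one-carbon synthesis rose together with IL-2, 7 of 8 by the test and 8 of 8 with the replicate block. IL-4 raised 1 of them, or 8 with the block, and IL-21, IL-15 and IL-7 raised 0, or 3, 0 and 7 with the block. Shmt2 is the mitochondrial enzyme that takes a one-carbon unit from serine. It was 10.44, 9.43 and 9.68 in media control and 11.79, 11.59 and 11.20 with IL-2, a change of 1.68 (SE 0.31, limma adjusted p = 0.00132) with no overlap. With IL-4 it was 11.32, 10.95 and 10.77, a change of 1.16 (SE 0.31, adjusted p = 0.026). In both media control and the IL-4 group replicate 1 was the highest array, and the IL-4 call was lost without IL-4 replicate 1 or 2, or replicate 2 or 3 of media control (giving an adjusted p of 0.113, 0.0666, 0.134 and 0.0849, in that order). Shmt1, the cytosolic form, was 8.93, 8.05 and 8.42 in media control and 10.13, 9.46 and 10.01 with IL-2 (1.40, SE 0.31, adjusted p = 0.00582). Its change of 0.71 with IL-4 passed only with the block (adjusted p = 0.207, and 0.00236 with the block).

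The synthesis of serine itself runs from Phgdh over Psat1 to Psph. Psat1, the aminotransferase of the middle step, was 11.38, 10.67 and 11.00 in media control and 12.44, 12.15 and 12.21 with IL-2, a change of 1.25 (SE 0.22, limma adjusted p = 0.000922). With IL-21 it was 11.35, 10.75 and 11.08 and overlapped with media control (0.04, 95% interval -0.43 to 0.51). Phgdh, the first enzyme, was raised by IL-2, by 0.78 (SE 0.17, adjusted p = 0.00527) and stood at -0.15 against media control with IL-21 (adjusted p = 0.75). Psph, the phosphatase of the last step, was 0.98 higher with IL-2 and passed only with the block (adjusted p = 0.0677, and 1.59e-05 with the block). IL-2 exceeded IL-21 for Psat1 by 1.21 (adjusted p = 0.00291) and for Phgdh by 0.92 (adjusted p = 0.00381).

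The folate enzymes that pass the one-carbon unit on also rose with IL-2. Mthfd1, the cytosolic enzyme with 3 activities, was 9.72, 9.00 and 9.75 in media control and 10.79, 10.40 and 10.83 with IL-2 (1.18, SE 0.31, limma adjusted p = 0.0142). Mthfd2, a mitochondrial dehydrogenase of the same pathway, was 10.18, 9.83 and 10.57 in media control and 11.36, 11.39 and 11.30 with IL-2 (1.15, SE 0.20, adjusted p = 0.000921). All 3 IL-2 arrays were above all 3 controls for both genes, and the call of Mthfd1 was lost without IL-2 replicate 1, or replicate 2 of media control (giving an adjusted p of 0.0562 and 0.0875, in that order). Mthfd2 was also higher with IL-2 than with IL-7, IL-15 and IL-21, by 0.92, 1.14 and 1.06 (adjusted p = 0.0333, 0.00212 and 0.00426), the first of these calls being lost on leaving out any 1 of the 6 arrays (adjusted p = 0.0637 to 0.196), while its difference of 0.73 from IL-4 passed only with the block (adjusted p = 0.084, and 0.00265 with the block). Mthfd1l, which releases formate in mitochondria, rose by 0.71 with IL-2 (adjusted p = 0.0248), a call lost without IL-2 replicate 1 or 2, or replicate 2 or 3 of media control (giving an adjusted p of 0.0918, 0.106, 0.112 and 0.0817, in that order). With IL-7 it stood 0.71 above media control, which passed only with the block (adjusted p = 0.0944, and 0.00139 with the block).

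Cysteine and asparagine synthesis held 2 of the genes that rose with IL-2, Cth and Asns. Cth, which makes cysteine from cystathionine, was 5.92, 4.13 and 4.39 in media control, under background, and 8.50, 7.62 and 8.61 with IL-2, a change of 3.43 (SE 0.60, limma adjusted p = 0.000924). With IL-21 it was 7.39, 6.48 and 6.42, above every control array, and the change of 1.95 passed only with the replicate block (adjusted p = 0.0664, and 0.000916 with the block). The mean of Cth was under background with every cytokine but IL-2. Replicate 1 was the highest of the 3 control arrays and of the 3 arrays of every cytokine but IL-2. Asns, asparagine synthetase, was 8.82, 7.49 and 7.38 in media control and 11.13, 11.34 and 10.92 with IL-2. This is a change of 3.24 (SE 0.44, adjusted p = 0.00016) or 9.42-fold. With IL-4 it was 9.93, 9.71 and 9.63 and rose by 1.87 (SE 0.44, adjusted p = 0.0148). The IL-4 call was lost without IL-4 replicate 1, or replicate 2 or 3 of media control (giving an adjusted p of 0.0583, 0.077 and 0.066, in that order). With IL-7 and IL-21 it was 9.90, 8.91 and 8.56 and 9.84, 8.83 and 8.90, and the changes of 1.23 and 1.30 passed only with the block (adjusted p = 0.0122 and 0.0059, and 0.193 and 0.106 without it).

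Aldh18a1, which starts proline synthesis from glutamate, was 10.11, 9.93 and 9.45 in media control, 11.50, 11.66 and 10.71 with IL-2 and 11.16, 11.03 and 10.47 with IL-4. It rose by 1.46 (SE 0.27, limma adjusted p = 0.00138) and by 1.06 (SE 0.27, adjusted p = 0.0209), and replicate 3 was the lowest array in all 3 groups. The IL-4 call was lost without IL-4 replicate 1 or 2, or replicate 2 or 3 of media control (giving an adjusted p of 0.0974, 0.0811, 0.054 and 0.0937, in that order). Cbs, the enzyme before Cth in cysteine synthesis, was under background in every group and its change of 0.44 with IL-2 did not pass (adjusted p = 0.142, and 0.0213 with the block).

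Of the 17 cytosolic tRNA synthetases measured, 13 rose with IL-2, 6 with IL-4 (Aars, Cars, Eprs, Iars, Mars and Yars) and 3 with IL-21 (Aars, Cars and Yars), while Wars fell with IL-21. The letters before the common ending name the amino acid, with Eprs joining both glutamate and proline. Cars, for cysteine, was 7.37, 6.97 and 7.70 in media control, 9.15, 9.09 and 9.49 with IL-2 and 8.42, 8.56 and 8.47 with IL-4, without overlap between the 3 groups. With IL-2 it rose by 1.90 (SE 0.22, limma adjusted p = 4.93e-05), by 1.14 with IL-4 (SE 0.22, adjusted p = 0.00433) and by 0.91 with IL-21 (SE 0.22, adjusted p = 0.0217). Iars, for isoleucine, was 10.08, 9.45 and 9.39 in media control and 11.52, 11.49 and 11.19 with IL-2 (1.76, SE 0.25, adjusted p = 0.000227). Mars, for methionine, was 10.23, 9.60 and 9.88 in media control and 11.42, 11.55 and 11.25 with IL-2 (1.50, SE 0.23, adjusted p = 0.000352). With IL-4 Iars and Mars rose by 0.99 and 1.03 (adjusted p = 0.0211 and 0.00973). The IL-4 call was lost for Iars without IL-4 replicate 1 or 2, or replicate 2 or 3 of media control (giving an adjusted p of 0.102, 0.0618, 0.0973 and 0.0849, in that order), and for Mars without replicate 2 of media control (giving an adjusted p of 0.0609). The IL-21 call of Cars was lost without IL-21 replicate 1 or 3, or replicate 2 of media control (giving an adjusted p of 0.111, 0.0683 and 0.12, in that order).

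Yars, for tyrosine, had the smallest adjusted p of the 37 genes with IL-2 and with IL-4. It was 8.31, 8.13 and 8.49 in media control, 9.76, 9.82 and 9.68 with IL-2 and 9.11, 9.32 and 9.24 with IL-4, and its replicates lay closer together than those of most of the genes. With IL-2 it rose by 1.44 (SE 0.15, limma adjusted p = 2.47e-05), by 0.92 with IL-4 (adjusted p = 0.00142) and by 0.74 with IL-21 (adjusted p = 0.00759). Tars, for threonine, was 9.91, 9.43 and 9.76 in media control and 11.06, 10.83 and 11.22 with IL-2 (1.34, SE 0.25, adjusted p = 0.00153). The other 8 synthetases that rose with IL-2 were Nars, Eprs, Lars, Aars, Gars, Rars, Sars and Kars, with changes from 0.32 for Kars to 1.26 for Nars. The 4 that did not pass with IL-2 were Hars at 0.58, Vars at -0.06, Wars at -0.24 and Qars at -0.37 (adjusted p = 0.0881, 0.983, 0.4 and 0.411), of which Hars passed with the replicate block (adjusted p = 0.000349). The calls of Sars, Kars and Rars were the least firm, since 5, 5 and 4 of the 6 single arrays of the comparison each ended them when left out. The IL-21 call of Aars lay at the threshold (adjusted p = 0.0499) and was lost on leaving out 4 of the 6 arrays. The IL-4 call of Aars was lost without IL-4 replicate 2, or replicate 2 of media control (giving an adjusted p of 0.0635 and 0.0769, in that order), and that of Eprs without replicate 3 of media control (giving an adjusted p of 0.0546).

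Wars, for tryptophan, was the 1 synthetase that passed the test downward with IL-21, and of the other 16 Vars and Kars had changes below 0 that did not pass (-0.25 and -0.03). It was 9.60, 9.69 and 9.41 in media control and 9.06, 8.92 and 8.85 with IL-21, every IL-21 array under every control array, a fall of -0.62 (SE 0.15, limma adjusted p = 0.0177). The call was lost without IL-21 replicate 2 or 3, or replicate 2 of media control (giving an adjusted p of 0.0582, 0.0712 and 0.087, in that order). It was also lost with the columns centred on their medians in place of the quantile step (adjusted p = 0.168) and with the mean of all its probe sets (adjusted p = 0.161). For IL-15, IL-7, IL-2 and IL-4 Wars stood at -0.05, -0.12, -0.24 and -0.33 against media control, and none of these passed. For the 29 genes that rose with IL-2, 18 have other probe sets. All 35 of those other sets moved in the same direction, and 24 passed in a fit over all probe sets, or 21 of the 24 that are over background. For the genes called with IL-4, 15 of 16 other sets moved in the same direction and 6 passed, or 6 of the 12 over background. For those called with IL-21, 6 of 7 moved in the same direction and 1 passed, or 1 of the 4 over background. Another set over background did not pass for Eprs, Shmt1 and Shmt2 with IL-2. The same held for Aars, Aldh18a1, Eprs and Shmt2 with IL-4, and for Aars and Wars with IL-21.

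The cytokines were also compared with each other. IL-2 exceeded IL-4 for 3 of the 37 genes (Nupr1, Trib3 and Sesn2), where 0.962% of all genes were higher with IL-2, and for 18 with the replicate block, where 5.62% of all genes were. It exceeded IL-7 for 10 genes (background 0.528%), or 26 with the block (5.19%). It exceeded IL-15 for 23 genes (background 4.24%) and IL-21 for 19 (background 2.87%), or 31 and 30 with the block (11.5% and 10.6%). Lower with IL-2 were 0 of the genes against IL-4 (background 1.1%, or 4.98% with the block), IL-7 (0.896% and 5.91%), IL-15 (4.35% and 10.9%) and IL-21 (3.71% and 10.8%), except Qars against IL-21 with the block (-0.43, adjusted p = 0.044). With the deposited values taken as they are, 0 genes passed in any of these comparisons. With IL-2 Atf4 was higher than with IL-7 by 1.08 (limma adjusted p = 0.0155), than with IL-15 by 1.56 (adjusted p = 0.000323) and than with IL-21 by 0.89 (adjusted p = 0.0158). The calls against IL-7 and IL-21 were lost on leaving out 3 and 2 of the 6 arrays. Its difference of 0.61 between IL-2 and IL-4 (95% interval 0.15 to 1.06) did not pass without the block (adjusted p = 0.202, and 0.00318 with the block). For Asns the difference between IL-2 and IL-4 was 1.37 (adjusted p = 0.164, and 0.00776 with the block). Leaving out 1 array lowered the count against IL-4 to 1 (IL-2 replicate 1 or IL-4 replicate 1), that against IL-7 to 0 (IL-7 replicate 2) and that against IL-21 to 7 (IL-21 replicate 2).

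**Figure D4:**
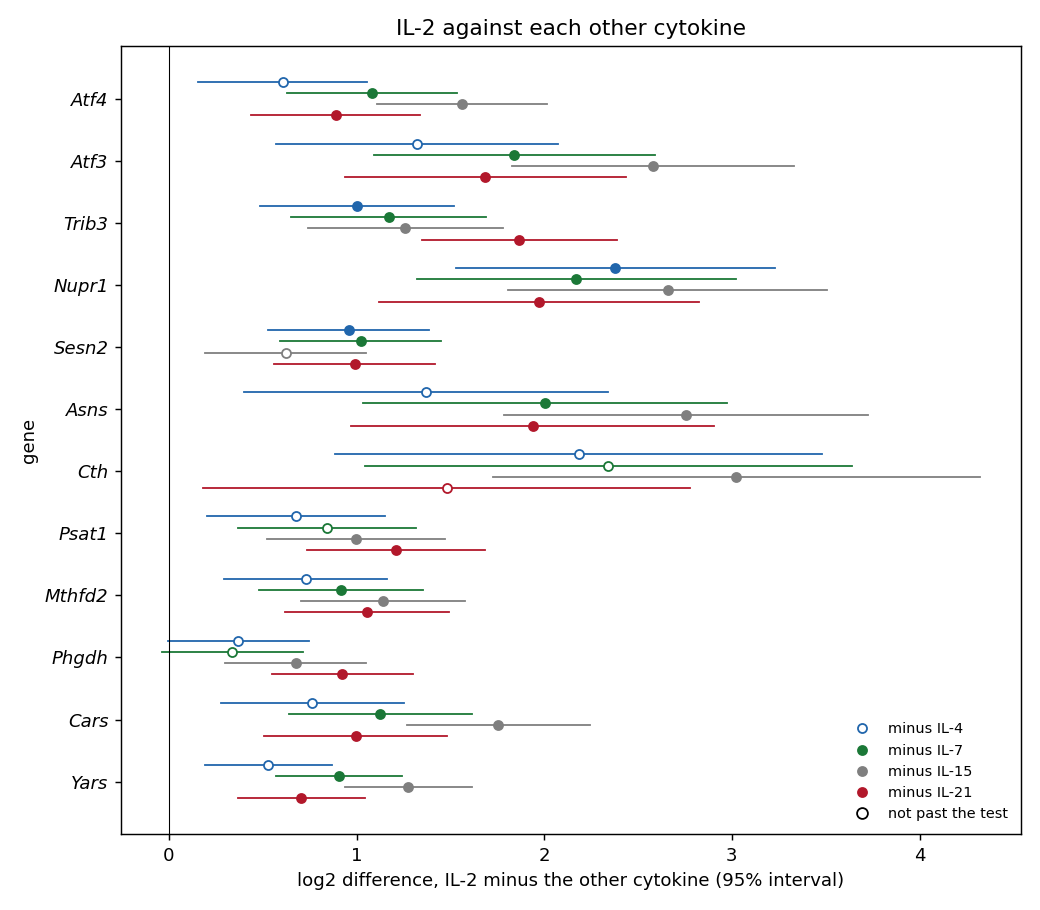
Log2 difference between IL-2 and each other cytokine with its 95% interval (horizontal axis) for 12 of the genes (vertical axis). Filled points passed the test (limma, adjusted p under 0.05) and open points did not. Against IL-4 the filled points are Trib3, Nupr1 and Sesn2, and against IL-15 all but Sesn2 are filled.

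Between IL-4 and IL-21 0 of the 37 genes passed, where 1.46% of all genes were higher with IL-4 and 2.35% lower. With an unadjusted p under 0.05 there were 3 of the 37, and 11.8% of all genes. With the replicate block 4 genes were higher with IL-4 (background 5.07%) and 0 lower (6.66%). These were Trib3, which differed by 0.87 (limma adjusted p = 0.0114 with the block and 0.0585 without), Phgdh by 0.55 (0.0126 and 0.108), Psat1 by 0.53 (0.015 and 0.299) and Shmt1 by 0.51 (0.0336 and 0.662). Of these, 3 belong to serine and one-carbon synthesis. Atf4 differed by 0.28 between IL-4 and IL-21 (95% interval -0.17 to 0.74) and Asns by 0.57 (-0.40 to 1.54), and neither passed in either fit.

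The replicates were also read one by one. With IL-2 the median difference of the 37 genes from the control of the same replicate number was 1.07, 1.40 and 1.22 in replicates 1, 2 and 3. Above 0 were 34, 35 and 34 of the 37, beside 53.4%, 52.4% and 54.7% of all genes. With IL-4 the median difference was 0.48, 0.76 and 0.73. With IL-7 it was 0.41, 0.45 and 0.40, and with IL-21 0.39, 0.35 and 0.53. With IL-15 it was 0.05 and 0.00 in the RNeasy replicates and 0.36 in the TRIzol replicate. Above 0 were 25 and 20 of the 37 in the RNeasy replicates and 30 in the TRIzol replicate. Of all genes 47.6%, 47.2% and 55.3% were above 0, in the same order. With IL-15 the 3 genes whose arrays all lay above the controls were Atf3, Chac1 and Vldlr, all under background in media control. With IL-7 the smallest adjusted p of the 37 genes was that of Eprs at 0.0791, with a change of 0.64. Its arrays of 11.23, 11.06 and 11.12 lay above the control arrays of 10.81, 10.45 and 10.23, and it passed with the block (adjusted p = 0.00741).

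Genes next to these pathways, from lists of known function, were read in the same way. Of 5 other synthetase subunits and scaffold proteins, 4 rose with IL-2, 2 with IL-4, and 1 each with IL-21 and IL-7. Under the replicate block 4 rose with each of IL-2 and IL-4 and 3 with each of IL-21 and IL-7, while 1 fell with IL-21. The largest changes with IL-2 were 1.72 for Eef1e1 (SE 0.35, limma adjusted p = 0.00309) and 1.26 for Aimp2 (SE 0.19, adjusted p = 0.000309), both parts of the complex that holds several synthetases, and 1.35 for Farsb, a subunit of the phenylalanine enzyme (SE 0.20, adjusted p = 0.000339). Of 16 mitochondrial synthetases 3 rose with IL-2 (Yars2, Nars2 and Ears2, by 1.21, 1.08 and 1.08), and their median change was 0.08, against 0.98 for the 17 cytosolic ones. With IL-4 1 mitochondrial synthetase rose and with IL-7 and IL-21 0. The replicate block called 6 of the 16 higher and 1 lower with IL-2, and 3 higher and 3 lower with IL-4. It called 2 higher and 1 lower with IL-7, and 0 higher and 1 lower with IL-21.

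Of 13 other folate and one-carbon enzymes 7 rose with IL-2 and 0 with IL-4, IL-7 or IL-21. Under the replicate block 9 rose with IL-2, 2 with each of IL-4 and IL-7 and 1 with IL-21, and 0 fell. The 7 called without the block included Gcsh of the glycine cleavage system (1.37, SE 0.27, limma adjusted p = 0.00239). Among them were also the mitochondrial folate carrier Slc25a32 (1.09, adjusted p = 0.00632) and Aldh1l2, a mitochondrial folate dehydrogenase (1.04, adjusted p = 0.0136). Of 13 other enzymes of amino acid synthesis 4 rose with IL-2, led by the branched-chain aminotransferase Bcat1 (2.11, SE 0.39, adjusted p = 0.00137), Gpt2 (1.31, adjusted p = 0.00111) and Got1 (0.97, adjusted p = 6.64e-05), 2 further aminotransferases. Got1 was also the 1 gene of this list that rose with IL-7 without the block (0.53, adjusted p = 0.0337). The block called 6 genes of this list higher and 2 lower with IL-2, and 4 higher and 2 lower with IL-4. It called 2 higher and 0 lower with IL-7, and 2 higher and 1 lower with IL-21. Of 10 amino acid transporters 4 rose and 1 fell with IL-2. Slc7a5 and Slc3a2, the chains of the LAT1 transporter of large neutral amino acids, rose by 2.65 (SE 0.35, adjusted p = 0.000119) and 1.17 (SE 0.20, adjusted p = 0.000732), and the glycine transporter Slc6a9 by 1.21 (adjusted p = 0.000144). Of the same 10, 1 rose and 0 fell with IL-4, 1 rose and 1 fell with IL-21, and 0 passed with IL-7 or IL-15. Under the block 7 transporters rose and 1 fell with IL-2, and 4 rose and 1 fell with IL-4. It called 2 higher and 0 lower with IL-7, 1 higher and 1 lower with IL-21, and 0 with IL-15. For IL-2, IL-4 and IL-21 in turn, the largest change of any transporter was 2.653, 1.598 and 1.641.

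Of 13 eIF2α kinases and regulators of ATF4, 3 rose and 1 fell with IL-2. Cebpb, a factor known to pair with ATF4, rose by 1.71 (SE 0.28, limma adjusted p = 0.000549), Myc, a growth factor-induced transcription factor, by 1.40 (SE 0.32, adjusted p = 0.00645) and Cebpg by 0.71 (adjusted p = 0.00708). The kinase gene that fell was Eif2ak1, the heme-regulated kinase (-0.38, adjusted p = 0.0358). Of the same 13, 1 rose and 0 fell with each of IL-4 and IL-21, and 0 passed with IL-7 or IL-15. Under the replicate block 6 rose and 2 fell with IL-2, and 4 rose and 1 fell with each of IL-4 and IL-7. It called 3 higher and 0 lower with IL-21 and 0 in either direction with IL-15. For IL-2, IL-4 and IL-21 in turn, the largest change of any gene in this list was 1.71, 1.30 and 1.59. Targets of XBP1 and ATF6, the other arms of the unfolded protein response, were raised by several cytokines, 6 of 10 with IL-2, 5 each with IL-4 and IL-21 and 1 with IL-7. The largest change of any gene in this list was 1.93, 1.91, 1.40 and 1.13, in the same order of cytokines. A large change in this list was thus not particular to IL-2. The block called 7 of the 10 higher and 2 lower with IL-2, and 6 higher and 0 lower with each of IL-4 and IL-21. For IL-7 it called 4 higher and 1 lower. With IL-2 Xbp1 rose by 1.93 (SE 0.15, adjusted p = 2.09e-06), Sdf2l1 by 1.13 and 1.37 with IL-2 and IL-21 (adjusted p = 0.00985 and 0.00595), and Creld2 by 0.91 and 1.35 with IL-2 and IL-4 (adjusted p = 0.00419 and 0.00042).

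The promoters of the genes were searched for the letters of the composite element bound by C/EBP and ATF factors, TGATGNAA on either strand, since ATF4 is known to act through it. RefSeq promoters of 300 bases, from 250 before to 50 after the start, were given for 31 of the 39 genes (build GRCm38.p6). The element was found in 12 of these 31, in 5 of 8 stress factors, 0 of 8 serine and one-carbon enzymes, 2 of 4 enzymes of asparagine, proline and cysteine synthesis and 5 of 11 synthetases, and in 36.4% of their 33 promoters. Of all 32851 promoters of the same length 3.97% hold it. The genes were chosen by name and include known ATF4 targets, so the difference between these shares is no test of the element. The E-box CACGTG, which MYC and related factors bind, was found in 18.2% of the 33 promoters and in 7.15% of all. No match of 1 motif overlapped a match of the other, and a match is not a binding site, nor does its lack say anything of the factor. Stretches around the element are shown for the stress factors and for Asns and 2 synthetases, where it lies before the start. Each is written 5′ to 3′ on the strand of the gene, with the element, or its reverse complement where it lies on the opposite strand, in capitals.
Atf3, chr1:191183420-191183459, minus strand: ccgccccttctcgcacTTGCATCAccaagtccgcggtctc
Chac1, chr2:119351033-119351072, plus strand: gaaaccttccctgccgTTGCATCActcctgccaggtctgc
Nupr1, chr7:126625557-126625596, minus strand: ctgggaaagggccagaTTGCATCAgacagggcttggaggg
Vldlr, chr19:27216804-27216843, plus strand: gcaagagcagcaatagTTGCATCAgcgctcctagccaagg
Asns, chr6:7693210-7693248, minus strand: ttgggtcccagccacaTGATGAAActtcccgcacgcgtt
Aars, chr8:111033714-111033753, plus strand: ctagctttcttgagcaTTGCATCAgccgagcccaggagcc
Gars, chr6:55037955-55037994, plus strand: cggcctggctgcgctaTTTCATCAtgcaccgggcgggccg

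In these windows the element starts 110 bases before the start in Atf3 and in Nupr1, 193 in Chac1, 200 in Vldlr, 23 in Asns, 112 in Aars and 30 in Gars. Pycr1 and Tars hold it 103 and 15 bases before the start. In Trib3, Iars and Yars it lies just past the start. Of the 11 measured genes with the element all 11 rose with IL-2, with changes from 0.93 to 3.24 and a median of 1.46. Of the 18 measured genes whose promoter lacks it 13 rose with IL-2 (median 1.07), among them Atf4 and all the serine enzymes that passed. With IL-4 6 of the 11 and 5 of the 18 rose, and with IL-21 3 and 1. Over all genes, 8.55% of 468 measured genes with it and 8.12% of 13985 without it rose with IL-2. For the E-box, 5 of the 6 measured genes of the list with it and 19 of the 23 without it rose with IL-2. Over all genes, 12.2% of 1479 with the E-box and 7.66% of 12974 without it rose, while 10.3% and 7.86% fell.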

How the data were processed

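The authors deposited log2 values of each probe set, made with the RMA algorithm in Affymetrix Expression Console (background correction, normalization and summary of the probes), per the labels and methods. RNA was amplified with a 3' kit. As 3 of the 18 columns lay on a lower scale, the columns were quantile normalized again. Of 45101 probe sets, 34958 had 1 gene symbol in the platform annotation, and for each of 18194 genes the set with the highest mean was used. Mars was matched as Mars1. The groups were fitted with limma 3.58.1 (lmFit, eBayes, two-sided) in R 4.3.3 over all 18 arrays, with 1 mean per group and no covariate (12 residual degrees of freedom). Benjamini-Hochberg adjustment ran over all genes of each comparison. After group means were removed, the deviations of equally numbered arrays correlated over the genes (lowest 0.442 of 45 pairs), above the highest of the 90 other pairs (0.383), so the numbers were taken to pair the samples. This pairing comes from the values, as the labels give only the numbers.

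Background is the 95th percentile of the levels of 32 genes known from other tissues. The genes and lists were chosen with earlier results of these data known, so no p is given over a list. Per-array values are given for Atf4 and, in each role, for up to 5 genes that passed with any cytokine, by size of change, and for genes outside these roles up to 3 per list. Ddit3, Sesn2, Wars and Eprs were added after their values were seen. When tested on simulated data (IL-2 compared with media control, 18194 genes), the fit recovered 66.5% of genes changed by 1 on the log2 scale and 96.5% of those changed by 2. The simulated arrays had independent noise without a replicate effect, and far fewer changed genes than were called with IL-2. The recovery on the real arrays may therefore differ. With 3 arrays per group the precision is limited. The alternatives were other scalings, blocks and probe set rules, leaving out dim genes, single arrays or the 3 low arrays, and, added after the data were seen, the values as deposited with the replicate block.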

Additional observations from a re-analysis of the deposited data

How the results depend on the processing

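No change of a gene tested against media control or between cytokines turned direction with its call under any alternative run. The counts depended on the scaling, the block and single arrays, and on the values as deposited the spread between the 3 low arrays and the rest adds to the error. Shares over all genes are given above for the main fit and the replicate block only. Counts under the other alternatives have no such share beside them. On the values as deposited 4 of the 37 genes were higher with IL-2, 0 with IL-4 and 0 with IL-21, 0 were lower with IL-21, 0 differed between IL-2 and any other cytokine, and 0 differed among the 6 groups. With those values and the replicate block, an alternative added after the data were seen, 22 were higher for IL-2, 16 for IL-4, 8 for IL-21 and 3 for IL-7, 0 were lower with IL-21, 19 differed among the 6 groups, and 2 differed between IL-2 and IL-7, 10 between IL-2 and IL-15, and 2 between IL-2 and IL-21. With the replicate block after quantile normalization 27 were higher and 1 lower with IL-4, 19 higher and 2 lower with IL-7, 20 higher and 2 lower with IL-21, and 18 differed between IL-2 and IL-4, 26 between IL-2 and IL-7, 31 between IL-2 and IL-21 and 4 between IL-4 and IL-21. The block also moved the counts with IL-2 and against IL-15 to 32 and 31 and changed neither of the counts of 0 with IL-15. With the extraction kit as a block 20 were higher and 1 lower with IL-4, 8 higher and 1 lower with IL-7, 13 higher and 2 lower with IL-21, and 10 and 21 differed between IL-2 and IL-4 or IL-7, and 2 between IL-4 and IL-21. With the columns centred on their medians 1 gene was lower with IL-4. With the mean of all probe sets 0 were lower with IL-21 and 1 differed between IL-4 and IL-21. With dim genes left out, among them Cth, Chac1, Nupr1, Vldlr and Cbs, 1 was lower with IL-4, 2 were higher with IL-7, 2 were lower with IL-21 and 1 differed between IL-4 and IL-21. Without the 3 low arrays 2 were higher with IL-7, 3 were higher with IL-21 and 6 differed between IL-2 and IL-4. Leaving out 1 array or 1 replicate number gave 18 to 29 genes higher with IL-2, 2 to 13 higher and 0 to 1 lower with IL-4, 0 to 4 higher and 0 to 1 lower with IL-7, 0 to 8 higher and 0 to 2 lower with IL-21, and 0 with IL-15. It gave 0 to 6 genes that differed between IL-2 and IL-4, 0 to 10 between IL-2 and IL-7, 5 to 28 between IL-2 and IL-15, 2 to 17 between IL-2 and IL-21, 0 to 1 between IL-4 and IL-21, and 3 to 27 among the 6 groups. Each of these lowest counts above 0 came without replicate 1, except that the 2 higher with IL-4 also came without replicate 2.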
